A study of Mus musculus with 8 samples.

Results

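The genes of mitosis and cytokinesis described here are 47 genes chosen by name from the 20308 genes in the count files. The rule used no measured value, but the list was drawn up with earlier results of these data known. They encode the kinases, spindle, kinetochore and chromosome proteins of cell division. RNA-seq was performed on CD11b+ cells from the right brain hemispheres of 4 control mice and 4 mice overexpressing CSF1 (CSF1 OE), with 1 library per mouse. All mice were F1 hybrids of C57Bl/6 and CD1 aged 14 or 15 days, and the labels do not say which mouse had which age. CSF1 OE mice carry a TRE/tTA transgene for the secreted form of CSF1 that is active in a subset of GFAP+ cells, which are not the cells purified here. Which transgenes the controls carried is not given in the sources used here. Total counts per library ranged from 12053280 to 15475488. All 47 genes passed edgeR's filter on low counts, as did 13407 genes in all, and the lowest count of any of the 47 in any library was 22.

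Mitosis begins when the kinase CDK1, bound to cyclin B, is activated, and it ends when the anaphase-promoting complex marks cyclin B and securin for destruction. Between these steps, condensin and topoisomerase II shape the chromosomes, kinetochores bind microtubules, and a checkpoint holds back anaphase until every chromosome is attached. The transcripts of these proteins are low in resting cells and accumulate in the G2 phase, and they are used as markers of dividing cells. Microglia divide in the postnatal brain, and CSF1 is a mitogen for them through its receptor CSF1R. The study counted dividing IBA1+ cells in brainstem and midbrain by staining for Ki67, the product of *Mki67*. It reported that, at 14 days of age, a larger share of these cells was dividing in CSF1 OE mice than in controls. The transcripts are a related but different measure, the RNA of CD11b+ cells from the whole right hemisphere.

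All 47 genes were higher on average in CSF1 OE than in control mice, whereas 44.8% of all genes tested were. The log2 fold changes, always CSF1 OE against control, ranged from 0.08 for *Anln* to 0.89 for *Ccnb2* with a median of 0.63, a 1.55-fold difference, beside a median of -0.034 over all genes tested. In 21 of the 47 genes the lowest CSF1 OE mouse exceeded the highest control, as in 6.84% of all genes tested, and in the other 26 the genotypes overlapped. In 3.45% of all genes, and in none of the 47, the CSF1 OE mice lay below the controls. None of the 47 was called differentially expressed by edgeR's quasi-likelihood test, for which a Benjamini-Hochberg adjusted p under 0.05 over all genes tested and a fold change under 0.7 or over 1.43 were required. That rule called 0.388% of all genes higher and 0.0522% lower, or 0.440% in either direction. An unadjusted p under 0.05 was reached by 35 of the 47, all higher, while at that p 10.1% of all genes were higher and 6.44% lower, 16.5% together, and 35 had a fold change over 1.43, compared with 4.31% of all genes. DESeq2, run as an alternative, called 7 of the 47, all higher, beside 1.90% of all genes. These 7 were *Cdk1*, *Mad2l1*, *Espl1*, *Aurkb*, *Cenpe*, *Ndc80* and *Top2a*. In these bulk samples, more dividing cells and more of a transcript per dividing cell cannot be told apart.

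**Figure D1:**
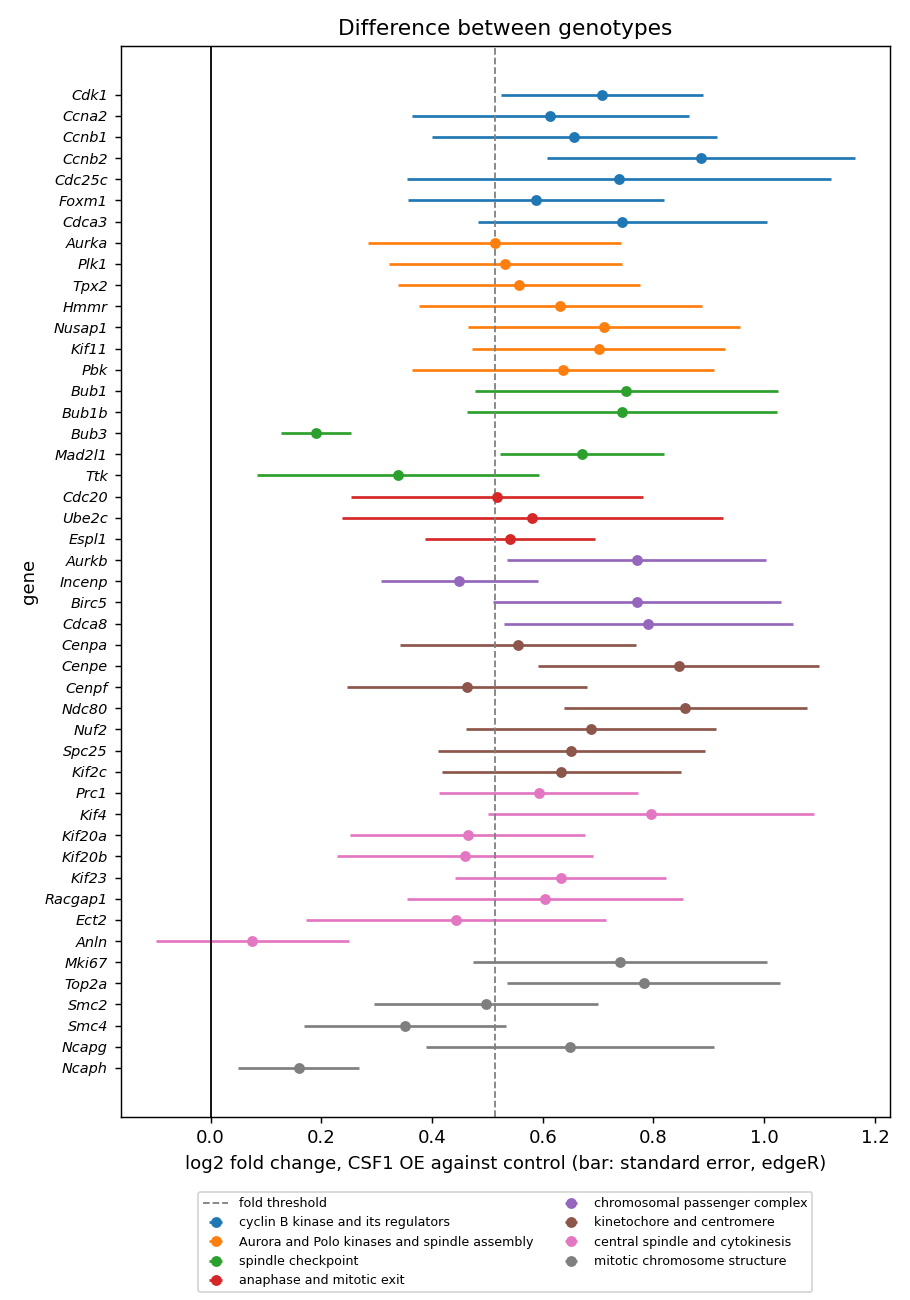
Log2 fold change of CSF1 OE against control (x axis) for each of the 47 genes (y axis), coloured by role, with bars showing the standard error from edgeR and a dashed line at the fold threshold of 1.43. Every point lies to the right of 0, from 0.08 for Anln to 0.89 for Ccnb2, and Anln, Ncaph, Bub3, Ttk and Smc4 are the 5 lowest.

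In these genes the control mice differed among themselves more than the CSF1 OE mice did. The summed level of the 47 genes, in counts per 1000000 counts of the normalized library (CPM), was 1972 in control mouse 1827, 1012 in mouse 1872, 1221 in mouse 1874 and 1792 in mouse 1934. In CSF1 OE mice it was 2068 in mouse 1931, 2596 in mouse 1932, 2349 in mouse 1936 and 2063 in mouse 2019. Every CSF1 OE sum was above every control sum, and the gap was small beside controls 1827 and 1934 and wide beside controls 1872 and 1874. The means were 1499 ± 456 CPM in controls and 2269 ± 256 CPM with CSF1 OE (SD, n = 4 each).

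Gene by gene the same mice were low and high. Controls 1872 and 1874 were the 2 lowest controls in 45 of the 47 genes, and mouse 1872 was the lowest in 45. Control 1827 was the highest control in 38 genes and control 1934 in 8. Among CSF1 OE mice, mouse 1932 was the highest in 35 genes, and mouse 2019 was the lowest in 26 and mouse 1931 in 16. Controls 1872 and 1874 each lay below every CSF1 OE mouse in 46 genes, control 1934 in 33 and control 1827 in 22. Mouse 1932 exceeded every control in all 47 genes, mouse 1936 in 39, mouse 1931 in 32 and mouse 2019 in 27.

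**Figure D2:**
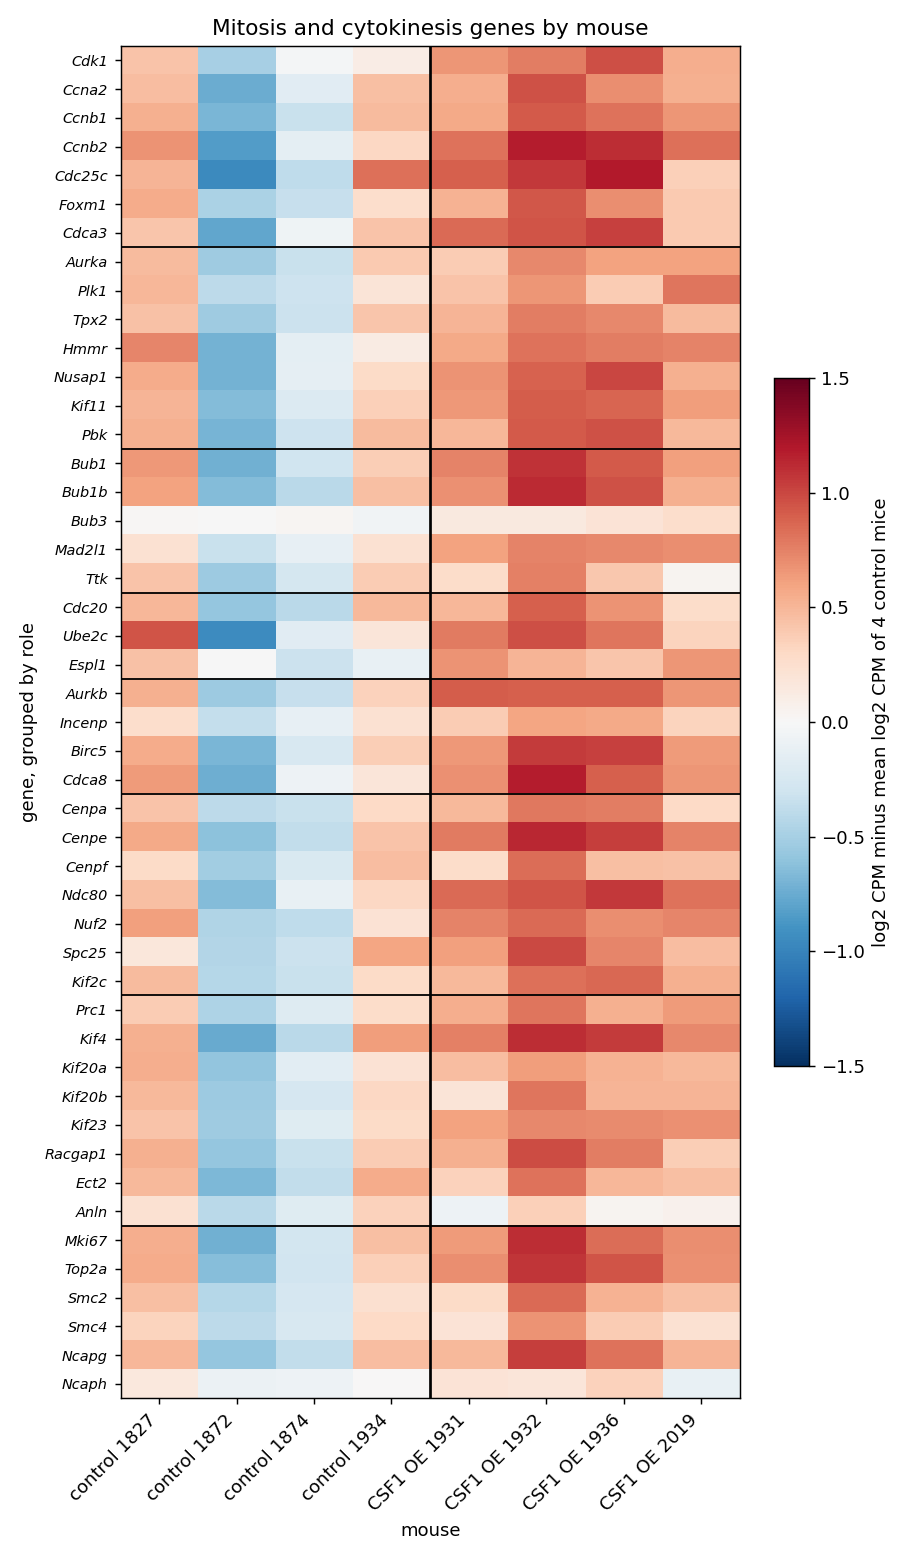
Log2 CPM of each of the 47 genes (rows, grouped by role) in each mouse (columns) minus the mean log2 CPM of the 4 control mice, with a colour scale from -1.5 to 1.5. The columns of controls 1872 and 1874 are blue and those of controls 1827 and 1934 are light red in nearly every row, and the 4 CSF1 OE columns are red, except in the pale rows of Bub3, Ncaph and Anln.

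The median standard deviation of log2 CPM over the 4 mice of a genotype was 0.51 in control and 0.20 in CSF1 OE mice for the 47 genes. For the 13389 genes tested that had a count in every library these medians were 0.21 and 0.22. The spread was larger in control than in CSF1 OE mice in 45 of the 47 genes, and in 44.5% of those genes. *Bub3* and *Ncaph* were the exceptions, and the difference in spread was not tested. The ratio of the highest to the lowest control mouse had a median of 2.11 over the 47 genes, and the same ratio in CSF1 OE mice had a median of 1.34.

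**Figure D3:**
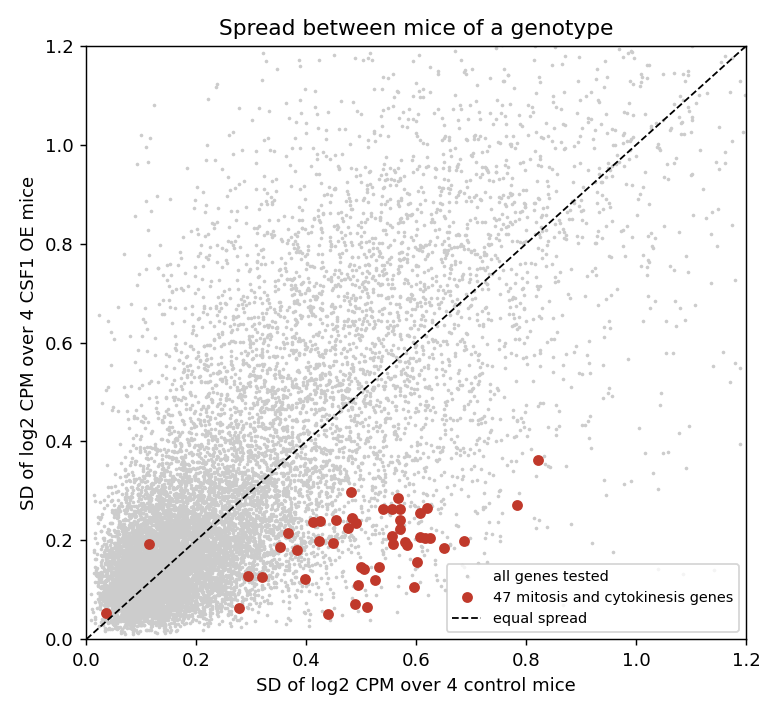
Standard deviation of log2 CPM over the 4 control mice (x axis) and over the 4 CSF1 OE mice (y axis) for the 47 genes (red) and for all genes tested that had a count in every library (grey), with a dashed line of equal spread. Of the 47 genes, 45 lie below the line, and 345 grey genes beyond 1.2 on either axis are not drawn.

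Animal numbers divide the mice into those from 1931 to 1936, which hold 1 control and 3 CSF1 OE mice, and the rest, with 3 controls and 1 CSF1 OE mouse. The labels give no litter, date or batch. Within the first range the difference of mean log2 CPM was above 0 in 45 of the 47 genes with a median of 0.38, where 49.96% of all genes were above 0. Within the rest it was above 0 in 46 genes with a median of 0.64, where 49.0% of all genes were. A term for the range in the edgeR fit gave a median log2 fold change of 0.48, with 46 of the 47 higher. It called 2 of them, *Mad2l1* and *Espl1*, both higher, while 2.26% of all genes were called higher in that fit and 9.5% in either direction. An unadjusted p under 0.05 was reached there by 16 of the 47, close to the share of 32.6% of all genes. Leaving out each mouse in turn gave medians from 0.47, without control 1872, to 0.80, without control 1827. The members with an unadjusted p under 0.05 by edgeR then numbered from 19 to 42. They were 19 without control 1874 (11.8% of all genes) or CSF1 OE mouse 1932 (16.4%), and 42 without control 1827 (18.1%). Without control 1827, *Espl1* was called, beside 1.0% of all genes called higher. None of the 47 was called without control 1872, 1874 or 1934, where 0.0148%, 0.0147% and 0.0595% of all genes were called higher, nor without CSF1 OE mouse 1931, 1932, 1936 or 2019, where these shares were 0.0220%, 0.0958%, 0.0445% and 0.440%. None was called with upper-quartile factors (0.119% of all genes called higher), with no filter beyond any count (0.232%), with at least 10 counts per library (0.420%) or with limma (0.656%).

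Mitotic genes are known for 2 short promoter motifs that act together, the cell cycle genes homology region (CHR), bound by the MuvB complex with B-MYB and FOXM1, and the CCAAT box, bound by NF-Y. Promoter windows of 300 bases, from 250 before to 50 after the start of a transcript, were taken from RefSeq on GRCm38.p6, and 38 of the 47 genes matched, with 41 windows. *Aurkb*, *Ccna2*, *Cdc25c*, *Foxm1*, *Incenp*, *Kif20a*, *Pbk*, *Smc4* and *Tpx2* had no window in the table used here. In 5 of the 38 genes (*Cdca3*, *Cdca8*, *Kif2c*, *Kif4* and *Mad2l1*) the window did not hold the start of the gene in GENCODE M21. The CHR was searched as TTTGAA and the CCAAT box as CCAAT, each on both strands, and neighbouring matches of the 2 may overlap. The CHR was found in 33 of the 41 windows (80.5%), compared with 17.9% of the 32851 windows of all genes. For CCAAT the shares were 78.0% and 37.4%, and for both in 1 window 70.7% and 6.95%. In a list of 81 other mitotic genes the CHR was found in 48.6% of 74 windows, and in a list of DNA replication genes in 14.6% of 41 windows. CCAAT was found in 60.8% and 56.1% of the windows of these lists. The E2F motif TTTCCCGC, searched in the same way, was found in 2.44% of the windows of the 47 genes, 17.1% of those of DNA replication genes and 1.07% of all windows. A match of letters is a description of the sequence and not a site in use.

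Of the 42 CHR matches in these windows, 31 lay between 30 bases before and 50 after the start (73.8%), compared with 20.1% of the matches of all genes, a range chosen after the positions had been seen. The 30 genes with a match to the CHR letters had log2 fold changes from 0.08 to 0.89 with a median of 0.62, and the 8 without such a match (*Birc5*, *Bub1*, *Ccnb1*, *Cenpe*, *Mad2l1*, *Ncaph*, *Nuf2* and *Nusap1*) from 0.16 to 0.85 with a median of 0.70. The *Mad2l1* window did not hold the GENCODE start, so a match there would have been missed. The ranges of both sets overlapped, and their difference was not tested.

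**Figure D4:**
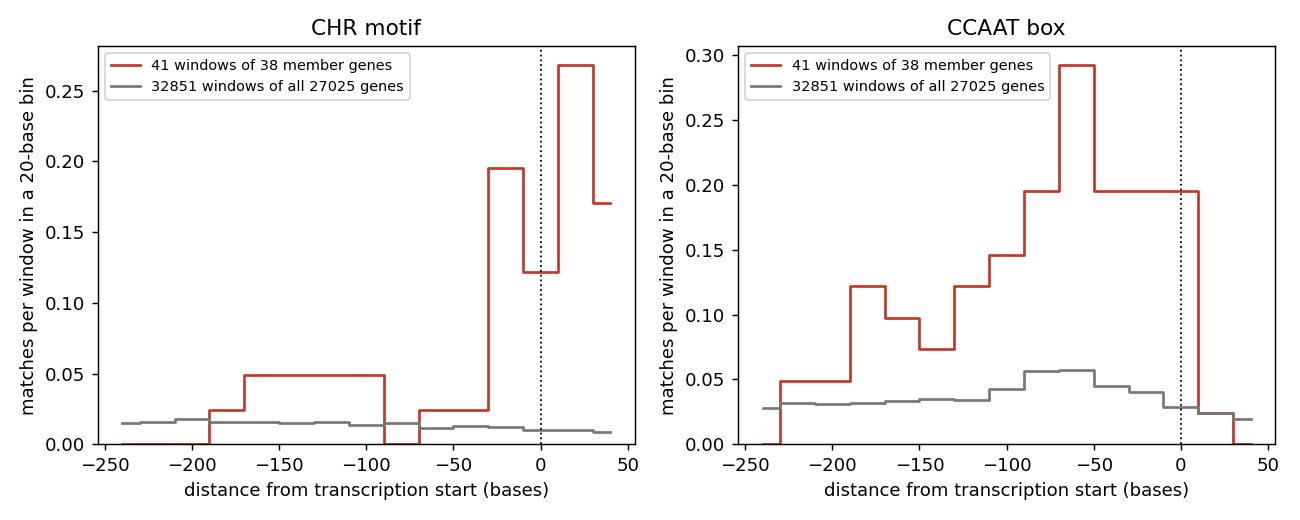
Matches per promoter window in bins of 20 bases (y axis) by distance from the transcription start (x axis), for the CHR motif (left) and the CCAAT box (right), in the 41 windows of 38 member genes (red) and in all 32851 windows (grey). In the red line the CHR matches are most frequent from just before to after the start and CCAAT matches upstream of it.

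The windows below are shown for *Mki67*, the usual marker of dividing cells, for *Ccnb2* and *Ndc80*, which had the largest differences, for *Mad2l1*, which had the lowest p, and for *Bub3* and *Anln*, which were among those with the smallest differences. Each is written from 5′ to 3′ on the strand of the gene, and capitals mark CHR and CCAAT matches on either strand. For *Bub3* the first of its windows is shown.
Mki67, chr7:135716330-135716629, minus strand: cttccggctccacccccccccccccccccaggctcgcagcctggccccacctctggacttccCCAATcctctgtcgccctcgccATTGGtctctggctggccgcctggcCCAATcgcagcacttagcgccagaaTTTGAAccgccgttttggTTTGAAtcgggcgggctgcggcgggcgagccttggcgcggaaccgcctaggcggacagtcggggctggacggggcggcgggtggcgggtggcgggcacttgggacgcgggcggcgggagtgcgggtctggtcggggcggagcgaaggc
Ccnb2, chr9:70421505-70421804, minus strand: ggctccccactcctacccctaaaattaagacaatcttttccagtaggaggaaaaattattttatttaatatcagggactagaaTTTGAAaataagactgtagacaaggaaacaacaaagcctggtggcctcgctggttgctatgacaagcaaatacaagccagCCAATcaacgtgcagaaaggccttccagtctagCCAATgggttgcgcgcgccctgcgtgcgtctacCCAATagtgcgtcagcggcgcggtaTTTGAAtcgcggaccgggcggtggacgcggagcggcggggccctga
Ndc80, chr17:71526808-71527107, minus strand: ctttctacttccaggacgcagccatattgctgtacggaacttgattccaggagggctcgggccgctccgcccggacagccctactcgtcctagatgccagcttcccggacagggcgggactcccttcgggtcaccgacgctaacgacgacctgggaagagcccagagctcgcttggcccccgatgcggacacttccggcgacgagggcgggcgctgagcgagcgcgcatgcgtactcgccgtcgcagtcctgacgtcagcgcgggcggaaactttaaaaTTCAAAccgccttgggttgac
Mad2l1, chr6:66534971-66535270, plus strand: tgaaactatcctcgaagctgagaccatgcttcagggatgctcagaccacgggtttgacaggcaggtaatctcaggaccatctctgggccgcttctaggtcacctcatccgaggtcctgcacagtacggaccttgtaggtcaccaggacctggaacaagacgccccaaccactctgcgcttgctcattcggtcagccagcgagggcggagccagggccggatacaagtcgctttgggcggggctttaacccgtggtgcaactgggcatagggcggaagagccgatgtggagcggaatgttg
Bub3, chr7:131560120-131560419, plus strand: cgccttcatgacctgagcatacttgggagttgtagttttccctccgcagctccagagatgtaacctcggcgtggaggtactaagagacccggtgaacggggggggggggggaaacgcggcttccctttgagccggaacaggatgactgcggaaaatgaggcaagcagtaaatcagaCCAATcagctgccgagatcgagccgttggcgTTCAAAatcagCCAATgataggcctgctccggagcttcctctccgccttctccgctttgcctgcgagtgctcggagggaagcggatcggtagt
Anln, chr9:22389157-22389456, minus strand: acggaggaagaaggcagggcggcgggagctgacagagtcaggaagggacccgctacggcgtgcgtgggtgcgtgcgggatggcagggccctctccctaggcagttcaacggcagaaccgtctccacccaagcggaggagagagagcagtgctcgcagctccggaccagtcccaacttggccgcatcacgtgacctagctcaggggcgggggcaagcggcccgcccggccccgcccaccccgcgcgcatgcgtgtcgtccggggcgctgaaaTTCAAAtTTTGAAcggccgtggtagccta

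*Ccnb2* carries 3 CCAAT boxes followed by a CHR just after the start, with another CHR farther upstream, and *Mki67* has 3 CCAAT boxes upstream of 2 CHR matches. *Bub3* also holds both motifs, *Ndc80* has 1 CHR and no CCAAT, *Anln* has 2 CHR matches and no CCAAT, and the *Mad2l1* window holds neither, but it ends before the GENCODE M21 start of the gene given below.

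Among cyclin B kinase and its regulators, 7 genes in the list, all 7 were higher and 4 had genotypes that did not overlap. For this and the other roles, the shares to set beside such counts are 21 of the 47 genes and 6.84% of all genes tested. *Cdk1* encodes the mitotic kinase and lies on chromosome 10 from 69335146 to 69352938 (GENCODE M21, GRCm38). It had 44.8, 23.7, 32.7 and 36.1 CPM in control mice 1827, 1872, 1874 and 1934 and 53.1, 56.7, 65.5 and 48.8 CPM in mice 1931, 1932, 1936 and 2019 with CSF1 OE, and mice are given in this order throughout. All CSF1 OE values were above all control values, with a log2 difference of 0.71 ± 0.18 (SE, edgeR adjusted p = 0.109). *Ccnb1*, cyclin B1, had 35.5, 15.3, 19.5 and 34.1 CPM in controls and 36.5, 46.5, 42.9 and 38.8 CPM with CSF1 OE. The lowest CSF1 OE mouse was just above control 1827, and the log2 difference was 0.66 ± 0.26 (SE, edgeR adjusted p = 0.253). *Ccnb2*, cyclin B2, on chromosome 9 from 70407692 to 70421547, had 20.4, 7.19, 11.6 and 16.0 CPM in controls and 22.6, 29.0, 27.6 and 22.8 CPM with CSF1 OE. Its log2 difference of 0.89 ± 0.28 (SE) was the largest of the 47, with an adjusted p of 0.174 by edgeR. *Foxm1*, the transcription factor that drives G2 and M phase genes, had 44.5, 21.9, 23.8 and 36.3 CPM in controls and 43.6, 57.9, 49.1 and 39.7 CPM with CSF1 OE. Control 1827 lay within the CSF1 OE range, and the log2 difference was 0.59 ± 0.23 (SE, edgeR adjusted p = 0.255). *Ccna2* (cyclin A2), *Cdc25c*, a phosphatase that activates CDK1, and *Cdca3*, a regulator of mitotic entry, had log2 fold changes of 0.61, 0.74 and 0.74. Per kilobase of transcript, the level of cyclin B1 was 10.5 and that of cyclin B2 9.01 CPM in control mice, and 16.5 and 16.7 CPM in CSF1 OE mice.

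The Aurora and Polo kinases and spindle assembly proteins comprised 7 genes, of which 2, *Tpx2* and *Kif11*, did not overlap between genotypes. *Plk1*, the Polo kinase of mitotic entry and centrosomes, had 19.6, 10.6, 11.2 and 15.9 CPM in controls and 18.7, 22.0, 18.1 and 24.3 CPM with CSF1 OE. It was 1 of 2 genes of the list with its highest value in mouse 2019, and its log2 difference was 0.53 ± 0.21 (SE, edgeR adjusted p = 0.255). *Aurka*, the Aurora kinase of the spindle poles, had 18.3, 9.13, 10.5 and 17.3 CPM in controls and 17.2, 21.7, 20.1 and 20.0 CPM with CSF1 OE. Controls 1827 and 1934 were just above CSF1 OE mouse 1931, and the log2 difference was 0.51 ± 0.23 (SE, edgeR adjusted p = 0.304). *Kif11*, the kinesin that pushes the spindle poles apart, had 49.6, 22.2, 30.2 and 44.5 CPM in controls and 54.9, 65.4, 64.1 and 54.0 CPM with CSF1 OE. The genotypes did not overlap, with a log2 difference of 0.70 ± 0.23 (SE, edgeR adjusted p = 0.188). The other members, *Tpx2* (an activator of Aurora A), *Hmmr* and *Nusap1* (spindle microtubule proteins) and *Pbk* (a mitotic kinase), had log2 fold changes from 0.56 to 0.71.

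In the spindle checkpoint, which delays anaphase while kinetochores are unattached, 5 of 5 genes were higher. *Mad2l1*, on chromosome 6 from 66535390 to 66547220, encodes the MAD2 inhibitor of CDC20. It had 13.4, 9.13, 10.5 and 13.5 CPM in controls and 17.4, 19.3, 18.9 and 18.6 CPM with CSF1 OE. The CSF1 OE values lay close together above all controls, and the gene had the lowest adjusted p of the 47, with a log2 difference of 0.67 ± 0.15 (SE, edgeR adjusted p = 0.0753). *Bub1b*, which encodes the checkpoint protein BUBR1, had 40.4, 16.9, 20.0 and 36.2 CPM in controls and 42.6, 57.8, 51.3 and 38.3 CPM with CSF1 OE. Control 1827 was above mouse 2019, and the log2 difference was 0.74 ± 0.28 (SE, edgeR adjusted p = 0.238). *Bub3*, on chromosome 7 from 131560222 to 131571895, binds BUB1 and BUBR1 and is also expressed in cells that do not divide. It had 63.2, 62.1, 63.7 and 60.3 CPM in controls and 69.1, 68.9, 72.0 and 74.5 CPM with CSF1 OE. Here the 4 controls lay within a ratio of 1.06 and all CSF1 OE mice were above them, with a small log2 difference of 0.19 ± 0.063 (SE, edgeR adjusted p = 0.195). *Bub1* had a log2 fold change of 0.75, and *Ttk*, the kinase MPS1, one of 0.34 with overlapping genotypes.

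For anaphase and mitotic exit, all 3 genes overlapped between genotypes. *Cdc20*, the activator of the anaphase-promoting complex, had 26.4, 12.5, 14.1 and 26.0 CPM in controls and 26.4, 34.6, 29.6 and 22.5 CPM with CSF1 OE. Controls 1827 and 1934 were above mouse 2019, and the log2 difference was 0.52 ± 0.26 (SE, edgeR adjusted p = 0.368). *Espl1*, on chromosome 15 from 102296266 to 102324357, encodes separase, which cuts the cohesin between sister chromatids. It had 66.8, 49.4, 39.5 and 45.7 CPM in controls and 78.9, 70.3, 65.9 and 78.2 CPM with CSF1 OE. Its order of mice differed from the usual one, as control 1874 was the lowest and control 1934 lay with the low controls, and its log2 difference was 0.54 ± 0.15 (SE, edgeR adjusted p = 0.142). *Ube2c*, the ubiquitin-conjugating enzyme of the complex, had a log2 fold change of 0.58 and ranged from 5.26 to 19.4 CPM over the control mice.

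The chromosomal passenger complex, in which Aurora B is held at centromeres by INCENP, survivin and borealin, was the role in which all genes, 4 of 4, did not overlap between genotypes. *Aurkb*, on chromosome 11 from 69045647 to 69051664, had 16.9, 7.95, 9.15 and 14.8 CPM in controls and 21.8, 21.5, 21.5 and 18.3 CPM with CSF1 OE. All CSF1 OE mice were above the controls, with mouse 2019 apart from the other 3, and the log2 difference was 0.77 ± 0.23 (SE, edgeR adjusted p = 0.162). *Birc5*, survivin, had 17.2, 7.26, 9.90 and 15.1 CPM in controls and 18.4, 24.2, 23.7 and 18.2 CPM with CSF1 OE. The log2 difference was 0.77 ± 0.26 (SE, edgeR adjusted p = 0.197), and the genotypes did not overlap. *Cdca8*, borealin, had a log2 fold change of 0.79 and *Incenp* one of 0.45. Per kilobase of transcript, control mice had 16.6 CPM of *Incenp*, 13.1 of *Birc5*, 8.82 of *Cdca8* and 6.25 of *Aurkb*.

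At the kinetochore and centromere, 7 of 7 genes were higher and 4 did not overlap. *Ndc80*, on chromosome 17 from 71496100 to 71526857, encodes the kinetochore protein that grips microtubules. It had 14.5, 6.78, 9.83 and 13.2 CPM in controls and 19.1, 20.4, 22.2 and 18.7 CPM with CSF1 OE. The genotypes were separate, and the log2 difference of 0.86 ± 0.22 (SE) was the second largest, with an adjusted p of 0.108 by edgeR. Its partners *Nuf2* and *Spc25* had log2 fold changes of 0.69 and 0.65, and the 3 subunits had 5.03, 6.11 and 6.96 CPM per kilobase in control and 9.13, 9.85 and 11.0 in CSF1 OE mice. *Cenpe*, a kinesin that carries chromosomes to the spindle equator, had 50.7, 22.3, 26.5 and 46.0 CPM in controls and 58.8, 74.9, 70.5 and 57.4 CPM with CSF1 OE. Again the genotypes did not overlap, with a log2 difference of 0.85 ± 0.25 (SE, edgeR adjusted p = 0.161). *Cenpa*, the histone H3 variant of centromeres, had 20.5, 11.6, 12.1 and 18.7 CPM in controls and 21.4, 26.4, 26.0 and 18.7 CPM with CSF1 OE. It overlapped, with a log2 difference of 0.56 ± 0.21 (SE, edgeR adjusted p = 0.246). *Kif2c*, which depolymerizes microtubules at the centromere, and *Cenpf*, a kinetochore protein, had log2 fold changes of 0.63 and 0.46.

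Central spindle and cytokinesis genes numbered 8, all higher, of which *Prc1*, *Kif4* and *Kif23* did not overlap. *Prc1*, which bundles the microtubules of the central spindle, had 43.5, 24.2, 29.3 and 40.6 CPM in controls and 48.9, 58.3, 48.4 and 52.0 CPM with CSF1 OE. The log2 difference was 0.59 ± 0.18 (SE, edgeR adjusted p = 0.162). *Kif23*, the motor of the centralspindlin complex, had 31.2, 16.0, 20.5 and 28.3 CPM in controls and 35.4, 38.4, 37.9 and 37.4 CPM with CSF1 OE. The 4 CSF1 OE mice were nearly level above the spread of the controls, with a log2 difference of 0.63 ± 0.19 (SE, edgeR adjusted p = 0.161). Its partner *Racgap1* had a log2 fold change of 0.60, and *Ect2*, the exchange factor that the complex recruits, had 0.44. *Anln*, on chromosome 9 from 22332012 to 22389188, encodes anillin, a scaffold of the contractile ring that is also made by myelinating oligodendrocytes. It had 45.2, 29.1, 34.0 and 49.1 CPM in controls and 36.5, 49.5, 39.5 and 40.4 CPM with CSF1 OE. The genotypes overlapped almost fully, and its log2 difference of 0.08 ± 0.17 (SE) was the smallest of the 47, with an adjusted p of 0.846 by edgeR. It was between -0.043 and -0.019 with the term for animal numbers, without control 1872 and without CSF1 OE mouse 1932. The 9 oligodendrocyte markers summed to between 2974 and 6221 CPM in controls and between 1625 and 5040 CPM with CSF1 OE, and their part in the level of *Anln* was not tested. The remaining kinesins *Kif4*, *Kif20a* and *Kif20b* had log2 fold changes of 0.80, 0.46 and 0.46.

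The group of mitotic chromosome structure held 6 genes, of which *Mki67* and *Top2a* did not overlap. *Mki67*, on chromosome 7 from 135689784 to 135716361, encodes Ki67, which coats mitotic chromosomes and keeps them apart. It had 268, 111, 151 and 252 CPM in controls and 286, 395, 327 and 298 CPM with CSF1 OE. Each CSF1 OE mouse was above each control, and the lowest, mouse 1931, was close to control 1827, with a log2 difference of 0.74 ± 0.26 (SE, edgeR adjusted p = 0.219). *Top2a*, topoisomerase II alpha, which untangles replicated DNA, had 175, 76.3, 97.8 and 153 CPM in controls and 193, 251, 230 and 191 CPM with CSF1 OE. Its controls stood in the same order as for *Mki67*, with a log2 difference of 0.78 ± 0.25 (SE, edgeR adjusted p = 0.174). *Smc4*, an ATPase subunit of condensin, had 87.9, 53.3, 59.1 and 85.5 CPM in controls and 80.6, 111, 91.1 and 81.9 CPM with CSF1 OE. The genotypes overlapped, with a log2 difference of 0.35 ± 0.18 (SE, edgeR adjusted p = 0.374). The other condensin subunits *Smc2*, *Ncapg* and *Ncaph* had log2 fold changes of 0.50, 0.65 and 0.16. *Ncaph* differed from the rest in its pattern, with 55.4, 46.7, 46.95 and 49.6 CPM in controls and 56.9, 56.1, 63.0 and 45.8 CPM with CSF1 OE, a value for mouse 2019 below all controls. It was named after its values had been seen.

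Other lists of the cell cycle were counted in the same fit. Of 81 other mitotic genes, 76 were higher and 5 lower, with a median log2 fold change of 0.58. An unadjusted p under 0.05 was reached by 35 of the 81, all of them higher, and 10.1% of all genes tested were higher at that p. In 21 of the 81 the lowest CSF1 OE mouse exceeded the highest control, beside 6.84% of all genes tested. None of the 81 was called by edgeR, beside 0.440% of all genes, and DESeq2 called 6, beside 3.07% of all genes. The extremes were *Cenpw*, a centromere protein at or below 2.50 CPM in every library, with 0.98, and *Zw10*, a kinetochore and membrane traffic protein, with -0.21. Of 45 DNA replication genes, 44 were higher with a median of 0.52, and 23 had an unadjusted p under 0.05, all higher. In 7 of them all CSF1 OE mice lay above all controls, as in 6.84% of all genes tested. *Pcna*, the sliding clamp, was called, with 193, 148, 158 and 161 CPM in controls and 234, 236, 253 and 242 CPM with CSF1 OE. Its log2 difference was 0.55 ± 0.094 (SE, edgeR adjusted p = 0.0499, close to the threshold), and no DNA replication gene was called with upper-quartile factors, with no filter, or without any 1 mouse other than control 1827. The largest difference was that of *Tk1*, thymidine kinase (1.0), and the 1 lower gene was *Gins4* (-0.10). Of 21 G1 cyclins and CDK inhibitors, 13 were higher and 8 lower, with a median of 0.11, and their summed level was 941 ± 60.7 CPM in controls and 1000.3 ± 52.2 CPM with CSF1 OE. An unadjusted p under 0.05 by edgeR was reached by 8 of the 21, 7 higher and 1 lower, beside 10.1% of all genes higher and 6.44% lower. In 2 of the 21 all CSF1 OE mice lay above all controls, beside 6.84% of all genes tested. There the extremes were *Cdkn2a* (1.10, at or below 2.79 CPM in every library) and *Cdkn1c* (-0.30). Differences between these lists and the 47 genes were not tested.

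**Figure D5:**
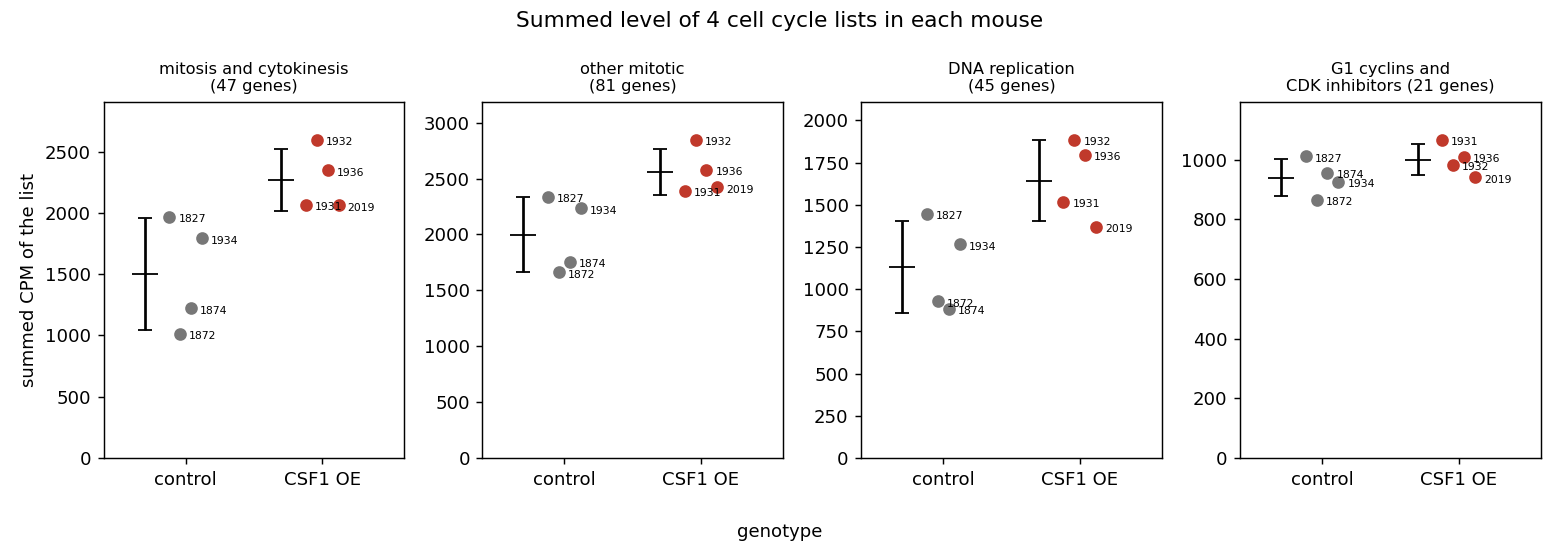
Summed CPM (y axis, from 0) of 4 lists of cell cycle genes in each mouse (points, labelled by animal number) of either genotype (x axis), with the mean (horizontal bar) and SD of 4 mice to the left of the points. For the mitosis and cytokinesis list the controls lie between 1012 and 1972 CPM and the CSF1 OE mice between 2063 and 2596 CPM, while the sums of G1 cyclins and CDK inhibitors overlap.

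Markers were used to see which cells the libraries held. The 14 microglial markers summed to between 24567 and 43081 CPM in controls and between 31457 and 44567 CPM with CSF1 OE, with control 1934 the lowest, and 7 of the 14 were higher. *Csf1r* had a log2 fold change of 0.05 and *P2ry12* one of -0.23, and *Aif1*, which encodes IBA1, had the highest log2 fold change of that list (0.60, genotypes not overlapping, edgeR adjusted p = 0.0971), and *Fcrls*, a microglial surface receptor, had the lowest (-0.63, genotypes overlapping, edgeR adjusted p = 0.168). *Csf1* itself had 139 to 364 CPM in controls and 167 to 400 CPM with CSF1 OE, which checks nothing about a transgene active in other cells. Of cell types that also divide at this age, 9 measured markers of oligodendrocyte precursor cells summed to 202 to 434 CPM in controls and 117 to 491 CPM with CSF1 OE, and 2 of 9 were higher. For neuroblasts and granule cell precursors the ranges were 112 to 544 and 75.7 to 438 CPM with 1 of 10 tested higher, and for astrocytes and radial glia 484 to 816 and 396 to 855 CPM with 5 of 11 higher. The extremes of the astrocyte and radial glia list were *Gfap* (0.88, edgeR adjusted p = 0.253) and *Gja1* (-0.50, edgeR adjusted p = 0.514), both with overlapping genotypes. Markers of endothelial cells ranged from 873 to 1467 CPM in controls and from 405 to 1015 CPM with CSF1 OE and were lower in 12 of 12. For mural cells the ranges were 168 to 359 and 159 to 306 CPM and for border macrophages 2937 to 4014 and 2081 to 3189 CPM, with 2 of 8 and 0 of 8 higher, and of the oligodendrocyte markers given above 1 of 9 was higher. Blood monocyte and neutrophil markers ranged from 58.4 to 127 CPM in controls and from 25.5 to 251 CPM with CSF1 OE, and 6 of 9 tested were higher. Lymphocyte markers summed to at most 20.1 CPM, with 1 of 2 tested higher and with *Cd3e*, *Cd3g* and *Nkg7* never above 3 counts. No measured marker of these lists was at 0 in all libraries, and none was called. For oligodendrocyte precursor cells, oligodendrocytes, neuroblasts and granule cell precursors, control 1934 had the highest control sum and CSF1 OE mouse 2019 the lowest sum of all mice. The same held for astrocytes and radial glia, endothelial cells and mural cells. It did not hold for border macrophages, blood monocytes and neutrophils, or lymphocytes. Neither the microglial list nor any of these other lists was higher throughout, and their part in the difference between genotypes was not tested.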

How the data were processed

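RNA of CD11b+ cells was measured in 4 control and 4 CSF1 OE mice, with 1 library per mouse, and samples were grouped by the animal number and genotype code of their titles. As stated in the paper's methods, reads were mapped with Bowtie 1.0.0 and the authors deposited expected counts per gene, estimated by RSEM 1.2.7 and not normalized. The submitters' processing notes name mm10, and the annotation and strand setting are not given in the sources used here. A second deposited table, a signal on the scale of counts, holds these counts after the authors divided them by a size factor for each mouse. RSEM divides reads that fit several genes, and 34 of the 47 genes had a count that was not whole in at least 1 library.

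Expected counts were rounded and tested over all genes by quasi-likelihood (glmQLFit and glmQLFTest after TMM and filterByExpr) with edgeR 4.0.16 under R 4.3.3, since the study's own test, EBSeq, was not at hand, with its fold thresholds. CPM is the count per 1000000 of the TMM-normalized library. The common biological coefficient of variation was 0.229. A count of 0 allows up to 3 counts, which is 0.177 to 0.266 CPM, for counting error only. p-values set the difference between genotypes against the spread between mice. With 1 preparation per mouse, spread between preparations is part of it and cannot be separated. Transcript lengths are those of the longest principal transcript of GENCODE M21, and promoters are from RefSeq. The methods were tested on simulated data.

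Alternatives were DESeq2 1.42.0, scaling by upper quartiles, keeping genes with any count, keeping those with 10 or more counts in all libraries, limma 3.58.1 (trend) on log2 of the deposited normalized values with a pseudocount of 1 or 0.5, a term for animal numbers from 1931 to 1936, each mouse left out, and no fold threshold. The members, lists and named genes were chosen with earlier results of these data known. Values per mouse are given for 20 members set by name, the 3 with the largest difference, those with separate genotypes and the lowest p, and *Espl1* and *Ncaph*, added after their values were seen. The extremes are named in the other cell cycle lists, in the microglial markers and in the markers of astrocytes and radial glia.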

Additional observations from a re-analysis of the deposited data

Results flagged for a closer look

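*Aurkb* was the one value of this kind among 102 groups of 4 mice examined, those of the 47 genes and of 4 summed lists in each genotype. In CSF1 OE mouse 2019 it had 18.3 CPM, far below the other 3 CSF1 OE mice, which lay between 21.5 and 21.8 CPM, for the width of the group. Dixon's criterion marks about 1 group in 20 by chance.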

How the results depend on the processing

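Under the alternatives fitted across all genes, every member except *Anln* kept its direction, and within the ranges of animal numbers *Anln* and *Ect2* (1931 to 1936) and *Ncaph* (the rest) were lower with CSF1 OE. *Anln* had log2 fold changes of -0.039 with the term for animal numbers, -0.043 without control mouse 1872 and -0.019 without CSF1 OE mouse 1932, in a range up to 0.21 over all mice left out in turn. Of 705 member values under the alternatives, 692 kept both direction and side of the threshold and 10 were newly called. The median log2 fold change of the 47 genes ranged from 0.47 to 0.80 with 1 mouse left out, and of the 2 comparisons within ranges of animal numbers, added after the data had been seen, that within 1931 to 1936 moved it to 0.38. By the Wald test of DESeq2 412 genes, 7 members (higher), 6 other mitotic genes and 3 DNA replication genes were called. With the term for animal numbers these counts were 1274, 2, 4 and 1. Upper-quartile factors called 19 genes and 0 DNA replication genes, no filter beyond any count called 44 genes and 0 DNA replication genes, and limma's trend method called 105 genes with either pseudocount. With 1 mouse left out, the number of genes called ranged from 3 to 164, of members from 0 to 1 and of DNA replication genes from 0 to 3, with the highest of each without control mouse 1827. No member was called lower in any alternative. The causes were not tested. No paired analysis was possible because the labels give no litter or other link between single control and CSF1 OE mice. Counts of the 47 genes were at least 22 in every library.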

Other observations

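Red blood cell markers, a list of 7 genes led by the globins, stood in an order over the mice that resembled that of the mitotic genes, which was noticed after the data had been seen. Their summed level was 805 CPM in control mouse 1827 and 936 CPM in mouse 1934, the controls with the high mitotic sums, and 252 and 298 CPM in mice 1872 and 1874. In CSF1 OE mice it was 435 CPM in mouse 1932, 229 CPM in mouse 1936, 51.6 CPM in mouse 1931 and 39.0 CPM in mouse 2019, the same order as the sums of the 47 genes. Between genotypes the direction was opposite, since all 5 red blood cell markers tested were lower in CSF1 OE mice, with a median log2 fold change of -1.58 and none called by edgeR. Their part in the spread of the mitotic genes was not tested.

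DNA replication genes showed the same pair of low controls, with sums of 929 and 883 CPM in mice 1872 and 1874 beside 1446 and 1266 CPM in mice 1827 and 1934, whereas the sums of G1 cyclins and CDK inhibitors lay between 867 and 1012 CPM over the 4 controls.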
